A study of Macaca fascicularis with 44 samples.

Results

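A set of 10 genes of the oxygen response and of glycolysis was followed across the cell classes, fine clusters and days of cultured cynomolgus monkey embryos. They were taken by name from the count table, which holds 21834 genes, and all 10 were found in it: PGK1, ENO1, ENO2, BNIP3, NDRG1, P4HA1, PLOD2, VEGFA, CA9 and ADM. Levels differed between embryos and did not follow the order of the days. In extraembryonic mesenchyme (EXMC), every library of the E25 embryo stood above every library of the E23 embryo for 9 of the 10 genes, against 4.8% of all 10976 genes tested in that class. The same direction was seen for all 10 genes in each of the 5 classes that both embryos hold in at least 10 cells. This pair of embryos was picked after the levels had been seen, so the counts are a description. The EXMC cells of E25 and E23 lie mostly in different fine clusters.

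When oxygen is short, the prolyl hydroxylases that mark the α subunit of hypoxia-inducible factor (HIF) for destruction slow down, and HIF binds its target genes. Known targets make the enzymes of glycolysis, move mitochondria to autophagy, shape collagen, call in blood vessels and keep the pH of the cell in balance. The early human placenta forms at low oxygen, and trophoblast and mesenchyme there express many of these genes. RNA levels of such genes do not measure oxygen, which no file gives.

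The embryos were wild type, made by injection of sperm into oocytes, picked as expanded blastocysts and grown on in culture, so every group shares the culture and none is an embryo from a uterus. By the labels' protocol, extraembryonic tissue was dissected off before the rest was digested to single cells, whose RNA was counted per gene. The authors' annotation nevertheless gives most cells extraembryonic names, with 549 CTB, 566 EVT, 111 STB, 1185 EXMC and 474 Extraembryonic Mesoderm cells of 3682. The libraries fell into E16 (7 libraries, 480 cells, from embryos E16-1 and E16-2), E18 (5 libraries, 375 cells), E20 (6, 518), E21 (5, 441), E22 (6, 529), E23 (6, 547), E24 (2, 186) and E25 (5, 457). Each day after E16 is thus 1 embryo, so day and embryo cannot be told apart. Libraries of 1 embryo are replicates of that embryo only. Libraries 26 and 27 (149 cells) have a title and a time label that name different days and entered no comparison by day or embryo. Levels pooled over a class or a fine cluster cover all 3682 cells, these included. The authors' annotation gives sex per embryo (E16-1, E18, E21 and E23 male, the others female) and a condition entry, one for both E16 embryos and another for E23, with the remaining embryos empty. What the condition entry stands for is not given in the sources used here. Neither sex nor this entry can be told apart from embryo.

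Libraries held 22 to 96 cells and 4393315 to 30568931 counts, with library medians of 40735 to 350364 counts per cell. Values below are CPM, counts scaled to a common library total, taken from the counts summed over a library, a class, a cluster or an embryo. Levels of different genes are not compared, since no gene lengths were given. Of the 12 class names of the authors, those of Mesoderm, Non-neural ectoderm and Extraembryonic Mesoderm were not checked against markers, and cytotrophoblast (CTB) only against general trophoblast markers. Summed markers were highest in the class of the same name for syncytiotrophoblast (STB), extravillous trophoblast (EVT), EXMC, Neural ectoderm, PS and derivative (primitive streak), EPI (epiblast) and Endoderm. The general trophoblast markers summed to 840 CPM in CTB, below STB (1209 CPM) and EVT (1022 CPM), and SOX1 was at 0 in Neural ectoderm. The class Blood cells (17 cells) went against its name, with HBZ, ALAS2 and GATA1 all at 0 and the highest summed endothelium markers (2522 CPM), and it is called here by its cluster number, 27. In human genomes PGK1, ENO1 and BNIP3 have processed copies, and how shared reads were counted is not given.

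Class contrasts set each of 8 classes against the mean of the other 7, with library as a block. They used edgeR and an adjusted p under 0.05 as the threshold. Class names rest on expression in these very cells, so the p-values are descriptive. A contrast compares classes of the same libraries, and classes that share no library only through other classes in the fit. A plain level also depends on which embryos hold the class. All 3 Neural ectoderm libraries came from E22, 6 of 7 Mesoderm libraries from E22, 5 of 6 Non-neural ectoderm libraries from E23 and all 7 libraries of PS and derivative from E16. Of the 10 members 0 were called higher and 7 lower in CTB, beside 16.2% and 14.5% of all 14689 genes. In EVT 4 were higher and 6 lower (15% and 12% of all genes), and in EXMC 5 were higher and 4 lower (16.6% and 8.63%). In Extraembryonic Mesoderm 4 were higher and 0 lower (14.5% and 7.43%). In Mesoderm 1 was higher and 1 lower (5.01% and 2.09%), and in Neural ectoderm 3 were higher and 2 lower (3.42% and 2.37%). In Non-neural ectoderm 1 was higher and 1 lower (5.58% and 1.95%), and in PS and derivative 1 was higher and 2 lower (1.31% and 1.8%). The median log2 difference of the members was -0.97 in CTB, -0.42 in EVT, 0.34 in EXMC and 0.65 in Extraembryonic Mesoderm, beside -0.02, 0.02, 0.12 and 0.10 over all genes.

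PGK1, the enzyme of the first ATP-yielding step of glycolysis, had 1277, 1684 and 1761 CPM in the 3 libraries of Neural ectoderm. In Mesoderm its 7 libraries ran from 938 to 2152 with a median of 1145 CPM, and in CTB 21 libraries ran from 504 to 1806 with a median of 1397 CPM. The contrast was 1.07 ± 0.27 (log2, SE, adjusted p = 0.0016) in Neural ectoderm and 0.58 ± 0.18 (0.019) in Mesoderm. It was negative in CTB (-0.43 ± 0.12), EXMC (-0.42 ± 0.11) and EVT (-0.39 ± 0.12). ENO1, the widely used enolase of glycolysis, also had its highest library mean in Neural ectoderm, with 3026, 3285 and 4240 CPM and a contrast of 0.98 ± 0.26 (adjusted p = 0.0038). In EVT it ran from 518 to 2814 CPM (median 1355), with a contrast of -0.57 ± 0.12, and in EXMC from 396 to 2693 CPM (median 1257), with -0.50 ± 0.11. The ranges of classes that stand next to each other in mean level overlapped for all 10 genes.

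ENO2, the enolase isoform typical of neurons, was not highest in Neural ectoderm when pooled over cells. It reached 35.9 CPM over all EXMC cells, 48.2 CPM in EPI, 38.3 CPM in Endoderm and 12.98 CPM in Neural ectoderm, against 2.97 CPM in CTB. The 3 libraries of Neural ectoderm, all of E22, had 7.30, 15.1 and 26.9 CPM. Their median was above that of every other class with at least 3 libraries. In EPI, ENO2 ran from 16.2 CPM in E21 to 174 CPM in E25. Its 28 EXMC libraries ran from 0 to 132 CPM with a median of 3.79 CPM, a spread that went with embryo, and its contrast in EXMC was not called (-0.29 ± 0.43, adjusted p = 0.82). In CTB it was called lower (-4.61 ± 0.72), on 21 libraries from 0 to 30.3 CPM with a median of 0.69 CPM. EVT was also called lower (-2.75, adjusted p = 0.00019), on 21 libraries from 0 to 80.6 CPM with a median of 1.42 CPM.

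BNIP3 is a mitochondrial outer membrane protein that recruits the autophagy machinery. Pooled over cells it was highest in Endoderm (2800 CPM, 95% Poisson interval 2762 to 2839) and EPI (2550 CPM, 2525 to 2575), intervals that cover counting error only. Endoderm had 4425 CPM in E18 and 2100 CPM in E21, and EPI ran from 2167 CPM in E21 to 3760 CPM in E25. BNIP3 was called in neither class in a fit with at least 5 cells per sum, given below. Its libraries ran from 165 to 2543 CPM in EXMC (median 660) and from 217 to 2218 CPM in CTB (median 849). The contrasts were -0.81 ± 0.15 in EXMC, -0.86 ± 0.16 in CTB and -0.45 ± 0.16 in EVT (adjusted p = 0.045 for the last), and 1.36 ± 0.39 in PS and derivative (0.0076). PS and derivative ran from 640.5 to 1284 CPM, inside the ranges of EXMC and CTB. No library of E16-1 held at least 10 cells of another class, so the contrast of PS and derivative rests on the libraries of E16-2. Classes absent from those libraries were reached only through other libraries that share classes with them.

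NDRG1, a stress-responsive gene linked to cell differentiation and known in human trophoblast, was highest in STB (586 CPM, pooled over cells), EVT (478 CPM) and Endoderm (368 CPM). EVT ran from 60.5 to 1051 CPM over 21 libraries with a median of 374 CPM, and its contrast was 2.13 ± 0.22 (adjusted p = 7.9e-13). EXMC (0.97 ± 0.21) and Extraembryonic Mesoderm (0.75 ± 0.22) were also called higher. Neural ectoderm had 3.56, 11.3 and 19.2 CPM and Mesoderm 7.12 to 47.3 CPM (median 31.1), and both were called lower (-2.43 ± 0.70 and -1.33 ± 0.39).

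Of the collagen-modifying enzymes, P4HA1 was called higher in both mesenchyme classes, and PLOD2 also in EVT. P4HA1, the catalytic subunit of collagen prolyl 4-hydroxylase, ran from 111 to 1435 CPM in EXMC (28 libraries, median 634) and from 337 to 1077 CPM in Extraembryonic Mesoderm (18 libraries, median 551). CTB ran from 30.3 to 235 CPM (21 libraries, median 91.4), which overlaps the low end of EXMC and lies below every Extraembryonic Mesoderm library. The contrasts were 1.16 ± 0.13 in EXMC, 1.29 ± 0.14 in Extraembryonic Mesoderm and -1.85 ± 0.16 in CTB. P4HA1 was also called lower in EVT (-0.54, adjusted p = 0.011). PLOD2, the lysyl hydroxylase of collagen telopeptides, ran from 220 to 1683 CPM in EXMC (median 879) and from 396 to 1423 CPM in EVT (median 794). PS and derivative ran from 8.45 to 70.6 CPM (7 libraries, median 30.6) and Neural ectoderm had 37.9, 48.0 and 82.3 CPM, all below every EVT and EXMC library. The contrast was 2.35 ± 0.14 in EXMC (adjusted p = 7.4e-23) and 1.85 ± 0.16 in EVT, and 4 classes were called lower, from -0.82 ± 0.17 in CTB to -1.70 ± 0.30 in Non-neural ectoderm.

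VEGFA, the growth factor that drives vessel growth, was also highest in EXMC (45.9 to 397 CPM, median 165) and EVT (70.8 to 425 CPM, median 170). Its contrast was 1.55 ± 0.20 in EXMC, 1.57 ± 0.23 in EVT and 0.88 ± 0.22 in Extraembryonic Mesoderm, against -1.08 ± 0.26 in CTB and -2.21 ± 0.80 in PS and derivative. The last was -1.33 without library 5 and -2.47 without library 7, neither of them called, and -3.03 without library 6. ADM, the vasodilator peptide adrenomedullin, stood out in Endoderm with 317 CPM (95% Poisson interval 304 to 330), against 77.7 CPM or less in every other class. The embryos with at least 10 Endoderm cells had 572 CPM in 26 cells of E18 and 249 CPM in 15 cells of E21. Among the class contrasts ADM was called higher in EVT (1.46, adjusted p = 0.0085) and in EXMC (1.17, 0.031). CA9, a membrane carbonic anhydrase of pH balance that is among the most hypoxia-bound of HIF targets, was low everywhere. It reached 15.97, 39.1 and 67.4 CPM in Neural ectoderm (2.78 ± 0.63, adjusted p = 0.00044) and 6.24 to 104 CPM in Non-neural ectoderm (1.56 ± 0.52), against 0 to 15.3 CPM in EVT (-2.50 ± 0.40) and 0 to 23.1 CPM in EXMC (-1.43 ± 0.31). CTB was called lower for CA9 as well (-2.84, adjusted p = 9.8e-10). CA9 in cluster 27 was 49.1 CPM in 17 cells.

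**Figure D1:**
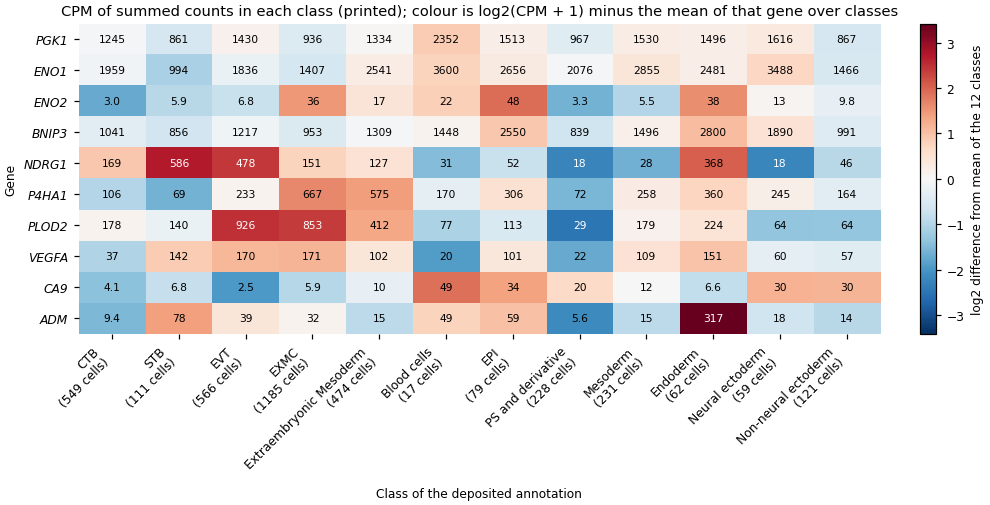
CPM of summed counts of each of the 10 genes (rows) in each of the 12 classes (columns, with the number of cells); colour is the log2 difference of a class from the mean of the 12 classes for that gene. NDRG1 is high in STB and EVT, PLOD2 in EVT and EXMC, and ADM in Endoderm (317 CPM).

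The closest pairs of classes were then set against each other. EVT and CTB, the invasive and the stem-like trophoblast, had at least 10 cells each in 18 libraries. PLOD2 ran from 396 to 1423 CPM in EVT, against 55.5 to 352 CPM in CTB, with no overlap over 21 libraries each, and the difference was 2.34 ± 0.15 (log2, SE, edgeR adjusted p = 8.4e-23). VEGFA ran from 70.8 to 425 CPM in EVT, against 6.41 to 126 CPM in CTB, an overlap of ranges, and differed by 2.31 ± 0.20. PLOD2, VEGFA, NDRG1 (1.42 ± 0.18) and P4HA1 (1.15 ± 0.15) were higher in EVT in all 18 of these libraries and in all 6 embryos that hold both classes. ADM (2.24 ± 0.34) was higher in 14 of 18 libraries, and ENO2 (1.63 ± 0.43) in 10 with 5 lower. The members called were thus 6 higher and 0 lower, while 18.1% of all genes were called higher. PGK1 (0.04 ± 0.11), ENO1 (-0.28 ± 0.11, adjusted p = 0.054), BNIP3 (0.36 ± 0.15, 0.075) and CA9 (0.30 ± 0.47) were not called. ENO1 was lower in EVT in 13 of 18 libraries and BNIP3 higher in 14, although BNIP3 was lower in 4 of 6 embryos. The ENO2 difference was 0.60 with adjusted p = 0.51 without fine cluster 18, an EVT cluster high in mesenchyme markers.

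In Extraembryonic Mesoderm against EXMC, PGK1, ENO1, BNIP3 and CA9 were called higher and PLOD2 and VEGFA lower, with 9 libraries that hold both. ENO1 (0.64 ± 0.13) and PGK1 (0.46 ± 0.13) were higher in Extraembryonic Mesoderm in 9 of 9 libraries, and BNIP3 (0.58 ± 0.18) and CA9 (1.80 ± 0.40) in 8 of 9. PLOD2 was lower in 9 of 9 libraries (-1.17 ± 0.16) and in all 6 embryos that hold both, and VEGFA in 7 of 9 (-0.59 ± 0.22, adjusted p = 0.04). Of 10 members 4 were called higher and 2 lower, where 7.88% of all genes were called in each direction. ENO2 (0.78 ± 0.41, adjusted p = 0.17), NDRG1 (-0.19 ± 0.22), P4HA1 (0.11 ± 0.16) and ADM (-0.44 ± 0.43) were not called. The VEGFA call was lost with RLE size factors, without the filter on low counts, with DESeq2, with at least 20 cells per sum and with fewer genes in the fit (adjusted p = 0.054 to 0.39).

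STB had at least 10 cells in 1 library only, so it was tested in a fit with at least 5 cells per sum, added after the data were seen. There ADM (3.64 ± 0.47), VEGFA (2.12 ± 0.29) and NDRG1 (1.18 ± 0.28) were higher in STB than in CTB, and ENO1 (-0.86 ± 0.16) and PGK1 (-0.42 ± 0.16) lower. Of all 13996 genes, 18.7% were called higher and 14.4% lower. Those directions of the 5 members called held in all 4 embryos with at least 10 cells of both classes. ENO2 (1.46 ± 1.37), BNIP3 (-0.31 ± 0.22), P4HA1 (-0.58 ± 0.28), PLOD2 (0.16 ± 0.25) and CA9 (0.87 ± 0.89) were not called. In the same fit ADM (3.29 ± 0.49) and NDRG1 (2.14 ± 0.35) were the members called in Endoderm, both higher, beside 5.92% of all genes, and PLOD2 (-1.78 ± 0.37) and NDRG1 (-1.35 ± 0.46) were called lower in EPI, beside 4.13%.

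Among the 26 fine clusters, those of EXMC differed widely. Clusters 4 (225 cells) and 11 (142 cells) had 2005 and 2064 CPM of BNIP3, 1335 and 1281 CPM of P4HA1 and 113 and 117 CPM of ENO2. Clusters 6 (202 cells) and 9 (165 cells) had 306 and 279 CPM of BNIP3, 179 and 165 CPM of P4HA1 and 0.75 and 1.62 CPM of ENO2. The high and the low clusters came from different embryos. Among cells of grouped libraries, cluster 4 was 69.6% from E25 and 22.8% from E18, and cluster 11 was 68.3% from E25 and 17.3% from E18. Cluster 6 was 92.0% from E16-2 and cluster 9 was 83.5% from E23.

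The other EXMC clusters lay between these, with BNIP3 at 757 CPM in cluster 1, 775 CPM in cluster 10 and 853 CPM in cluster 21. Their share of cells from E21 was 52.4%, 42.1% and 64.9% in the same order. CTB cluster 14 (125 cells, 89.6% from E23) had 358 CPM of BNIP3 and 27.5 CPM of NDRG1, while CTB cluster 0 (286 cells, drawn from 7 embryos with at least 10 cells) had 1631 and 246 CPM. In EVT, cluster 7 (67.7% from E23) had 339 CPM of BNIP3 and 333 CPM of PLOD2, against 1220 and 1027 CPM in cluster 13. Cluster 23 held the highest PLOD2 of all clusters (1392 CPM) with 521 CPM of BNIP3, below the BNIP3 of clusters 13, 18 and 19. Cluster 18 of EVT had P4HA1 at 637 CPM and ENO2 at 44.6 CPM, against 66.7 to 240 CPM of P4HA1 and 1.48 to 3.66 CPM of ENO2 in the other EVT clusters. The 6 mesenchyme markers summed to 18511 CPM in cluster 18, 5545 CPM in cluster 7 and 928 to 1616 CPM in the other EVT clusters. Its 5 EVT markers summed to 959 CPM, below the other EVT clusters (1394 to 11002 CPM). Of its cells 41.9% came from E25 and 37.2% from E24. The part of these markers in the values of cluster 18 was not tested.

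**Figure D2:**
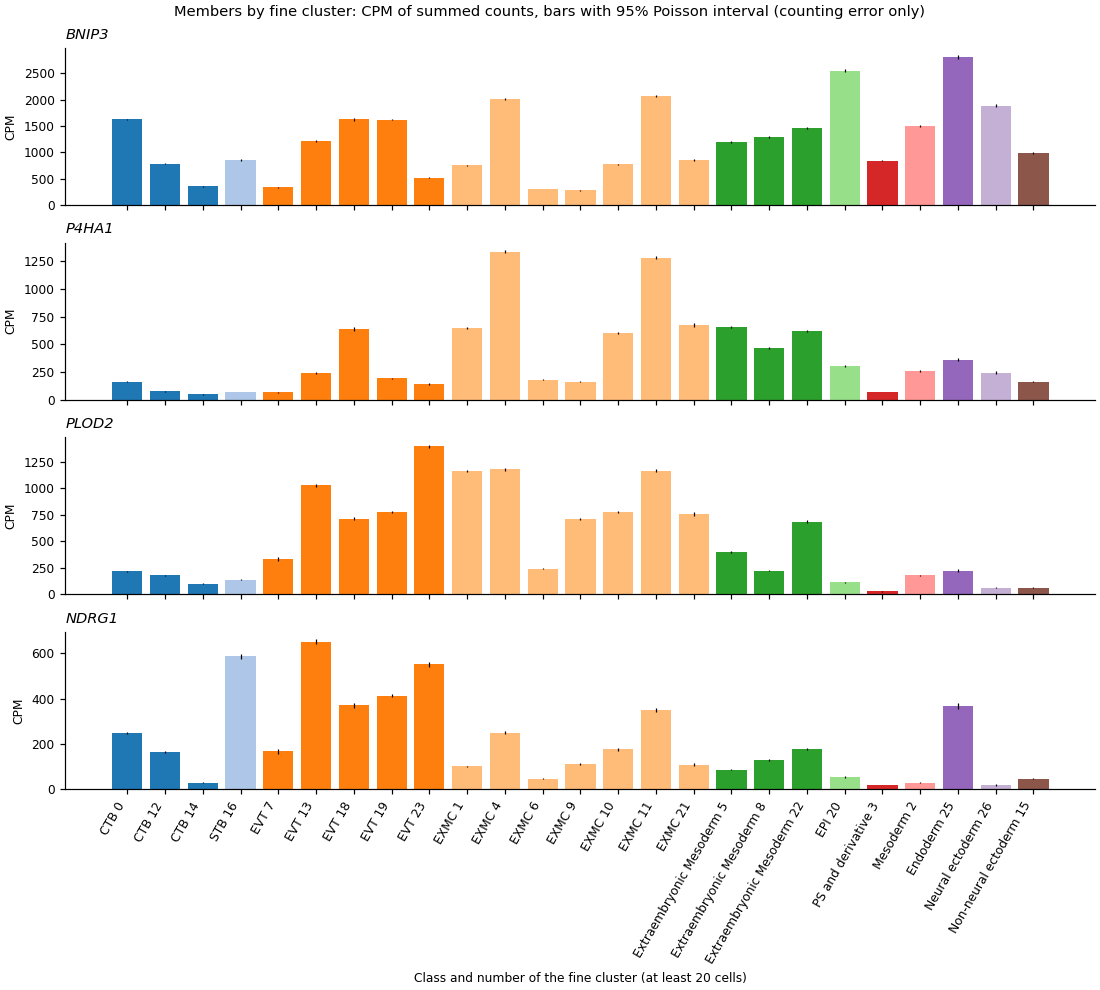
CPM of BNIP3, P4HA1, PLOD2 and NDRG1 in fine clusters of at least 20 cells, grouped and coloured by class, with 95% Poisson intervals of counting error. EXMC clusters 4 and 11 are high in BNIP3 and P4HA1 and clusters 6 and 9 low, while PLOD2 peaks in EVT cluster 23 (1392 CPM) and NDRG1 in EVT cluster 13 (651 CPM).

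Where cells of several embryos shared a cluster, the embryos still differed. In EXMC cluster 9, BNIP3 was 197 CPM in 137 cells of E23, against 1679 CPM in 14 cells of E18. P4HA1 in the same cells was 130.5 CPM in E23, against 666 CPM in E18. In CTB cluster 0, BNIP3 was 277 CPM in E16-2, 1221 CPM in E18, 1464 CPM in E20, 1610 CPM in E21, 2525 CPM in E22, 1939 CPM in E24 and 2010 CPM in E25. In STB cluster 16, NDRG1 was 117 CPM in E16-2, 284 CPM in E20, 122 CPM in E23 and 1379 CPM in E25. Cells of 1 cluster and 1 embryo are not replicates, and these differences were not tested.

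In EXMC libraries the embryos E18 and E25 were high and E16-2 and E23 low for several members. No library of E22 held at least 10 EXMC cells. Pooled over its 15 EXMC cells, E22 was the highest embryo for BNIP3 (2136 CPM), ENO1 (2666 CPM) and ADM (108 CPM). For every other member another embryo was highest, and CA9 was at 0 in E22. BNIP3 had 203, 295 and 419 CPM in the 3 libraries of E16-2, then 1437, 2185, 2354 and 2543 CPM in E18. At E20 it was 284, 636 and 709 CPM, and at E21 it was 378, 545, 604, 684 and 744 CPM. At E23 its 6 libraries ran from 165 to 239 CPM with a median of 213 CPM, at E24 it had 689 and 1702 CPM, and at E25 it had 1697, 1800, 1857, 1892 and 2114 CPM. E18 and E25 were high and every library of either was above every library of E16-2, E20, E21 and E23. P4HA1 showed the same shape: 135, 171 and 177 CPM in E16-2, 1079 to 1214 CPM in E18, 428 to 721 CPM in E20, 473 to 751 CPM in E21, 111 to 154 CPM in E23, 659 and 914 CPM in E24 and 1217 to 1435 CPM in E25. The libraries of E25 were above all others for P4HA1.

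ENO2 had the widest range between embryos. Its EXMC libraries had 0.71, 0.75 and 0.88 CPM in E16-2, 55.0, 55.3, 92.9 and 111 CPM in E18, 0.31, 1.56 and 3.14 CPM in E20 and 0.46 to 7.71 CPM in E21. In E23 4 of 6 libraries were at 0 and the highest had 0.81 CPM, E24 had 11.9 and 37.1 CPM, and E25 had 103, 106, 106, 126 and 132 CPM. Pooled over EXMC cells that is 3985 counts and 119 CPM in E25, against 5 counts and 0.27 CPM in E23. No library of E16-2, E20, E21 or E23 came near the lowest library of E18.

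PGK1 and ENO1 spanned less. PGK1 in EXMC was 607 to 698 CPM in E16-2, 1393 to 1706 CPM in E18, 731 to 1264 CPM in E20, 445 to 588 CPM in E21, 391 to 515 CPM in E23, 709 and 1309 CPM in E24 and 1329 to 1765 CPM in E25. ENO1 was 1348 to 1544 CPM in E16-2, 1748 to 2693 CPM in E18, 886 to 1438 CPM in E20, 908 to 1143 CPM in E21, 396 to 730 CPM in E23, 1049 and 1672 CPM in E24 and 1394 to 1949 CPM in E25. E23 had the lowest median for both, and for ENO1 the libraries of E25 and E16-2 overlapped.

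Other members had other orders of embryos. PLOD2 was highest at E20 (1452, 1625 and 1683 CPM) and lowest in E16-2 (220, 236 and 270 CPM), with E23 (652 to 883 CPM) overlapping E21 (567.8 to 822 CPM). NDRG1 had its highest library at E24 (170 and 431 CPM) beside 283 to 344 CPM in E25, 147 to 257 CPM in E18 and 32.5 to 151 CPM in the libraries of E16-2, E20, E21 and E23. CA9 stayed at 0 to 8.66 CPM in all EXMC libraries but 5, which were 1 of E23 (23.1 CPM) and 4 of E25 (10.0 to 18.3 CPM). VEGFA was 263 to 397 CPM in E18 and 244 to 345 CPM in E25, above every library of E16-2, E20, E21 and E23 (45.9 to 198 CPM). ADM was 46.9 to 123 CPM in E25, against 2.39 to 12.7 CPM in E21 and 0.75 to 23.4 CPM in E23.

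**Figure D3:**
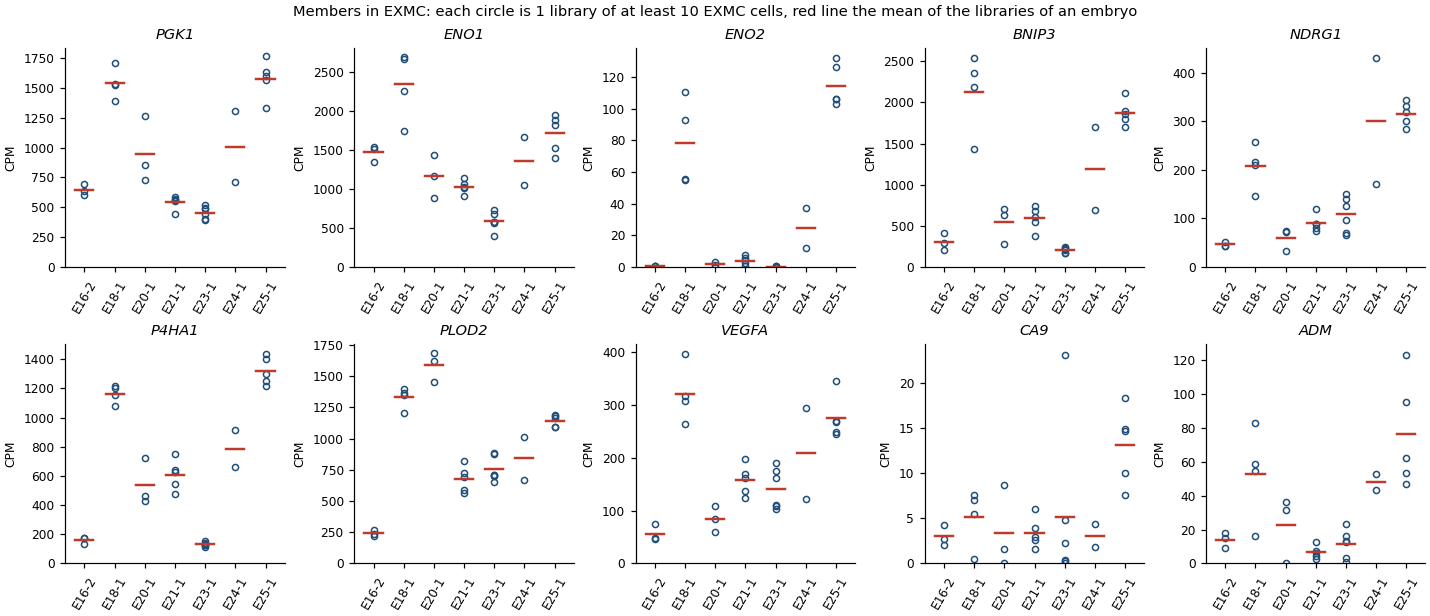
CPM of the 10 genes in EXMC; each circle is 1 library with at least 10 EXMC cells, the red line the mean of an embryo's libraries, embryos in order of day. E18 and E25 are high and E23 low for PGK1, ENO1, ENO2, BNIP3 and P4HA1, while PLOD2 peaks at E20 (1452 to 1683 CPM).

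The embryo pairs below were picked after these levels had been seen, and the counts of non-overlapping libraries are a description. In EXMC every E25 library was above every E21 library for 10 of 10 members, against 5.28% of all genes, and above every E23 library for 9 of 10 (all but CA9), against 4.8%. E18 was wholly above E23 for 7 of 10 (not NDRG1, CA9 or ADM), against 5.03%, and wholly above E16-2 for 8 of 10, against 13.6%. E25 was wholly above E16-2 for 9 of 10 (not ENO1), against 12.4%, and above E20 for 7 of 10 (not ENO1, CA9 or PLOD2, the last wholly below), against 11.9%. All these shares of members lie above the share of all genes. E25 and E21 share both of their library codes, and within each code (4 against 2 libraries and 1 against 3) E25 was again above E21 for all 10 genes. E23 shares a code with no other EXMC embryo but 1 library of E16-2, so code and embryo cannot be told apart there. The cell names of the E23 libraries carry another code than the labels do, and the labels' code was used.

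Other measures moved with embryo in EXMC. Counts of 6 early-response and heat-shock genes that dissociation can induce summed to 5294 CPM in E25 and 5891 CPM in E18, against 2579 CPM in E23, 1941 CPM in E21 and 761.9 CPM in E16-2. E20, with low BNIP3 and ENO2, had the highest sum of these (6912 CPM). Mitochondrial genes took 4.56% of counts in E25 and 6.10% in E18, against 3.70% in E20, 7.51% in E21, 8.30% in E23 and 11.5% in E16-2. Median counts per EXMC cell were 99103 in E25 and 113164 in E23. Summed mesenchyme markers were 33788 CPM in E25 and 27984 CPM in E23, and summed trophoblast markers 43.8 and 76.4 CPM. The part of these measures in the differences was not tested.

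The difference between E25 and E23 was not limited to EXMC. BNIP3 in CTB had 1846, 1848, 2003, 2138 and 2218 CPM in E25, against 278, 296, 339, 352 and 410 CPM in E23, with no overlap. NDRG1 in CTB had 227, 229, 301, 310 and 337 CPM in E25, against 10.9, 21.3, 29.5, 42.9 and 49.4 CPM in E23, again apart. Of 10 members 7 were wholly higher in E25 in CTB (not VEGFA, CA9 or ADM), against 3.74% of all genes. Of the CTB cells, 83 of 84 of E25 were in fine cluster 0 and 112 of 122 of E23 in cluster 14. In EVT, P4HA1 had 628, 747 and 812 CPM in E25, against 67.1 to 154 CPM in E23 (6 libraries, median 94.4), and BNIP3 had 1745, 2180 and 2341 CPM, against 319 to 720 CPM (median 428). PLOD2 in EVT overlapped, with 603, 665 and 677 CPM in E25 inside the E23 range of 396 to 1118 CPM. Of the EVT cells, 36 of 48 of E25 were in cluster 18, high in mesenchyme markers, and 130 of 146 of E23 in cluster 7. No cluster of CTB, EVT, EXMC or Extraembryonic Mesoderm holds at least 10 cells of both embryos, so cluster and embryo cannot be told apart in these 4 classes. STB is 1 cluster, with cells of both embryos.

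Pooled over the cells of a class in libraries with an assigned day, 10 of 10 members were higher in E25 than in E23 in CTB, EVT, EXMC, Extraembryonic Mesoderm and STB. Higher in E25 were 39.7%, 42.9%, 32.1%, 48.8% and 54.1% of all genes with a mean of at least 10 CPM in those classes, in that order. Members more than 2-fold higher were 8 of 10 in CTB (6.25% of all genes), 8 in EVT (8.61%), 8 in EXMC (4.84%), 10 in Extraembryonic Mesoderm (21.2%) and 9 in STB (21.3%). The median log2 ratio of the members was 1.64, 1.87, 1.68, 2.53 and 2.51 in the same order, beside -0.16, -0.13, -0.30, -0.03 and 0.11 over all genes. The limit of 10 CPM, and a constant added to both sides of the ratio, applied to all genes but not to members. The same holds against E21 below. ENO2 in CTB (17.9 CPM in E25 and 0.20 CPM in E23) was thus counted among the members although under that limit. Extraembryonic Mesoderm rests on 20 cells of E25 and 14 of E23, and STB on 11 and 30.

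Against E21 the classes differed. Higher in E25 than in E21 were 10 of 10 members in EXMC (37.2% of all genes) and in Extraembryonic Mesoderm (49.6%), 9 in EPI (53.5%), 8 in EVT (49.1%) and 7 in CTB (49.5%). More than 2-fold higher were 1 of 10 in CTB (7.71% of all genes), 4 in EVT (12.4%), 7 in EXMC (4.32%), 6 in Extraembryonic Mesoderm (15.8%) and 7 in EPI (26.3%). In EPI, VEGFA was 377 CPM in 15 cells of E25, against 12.3 CPM in 12 cells of E21, and NDRG1 was 131 CPM in E25, against 8.47 CPM in E21. No test was made, with 1 embryo on each side.

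**Figure D4:**
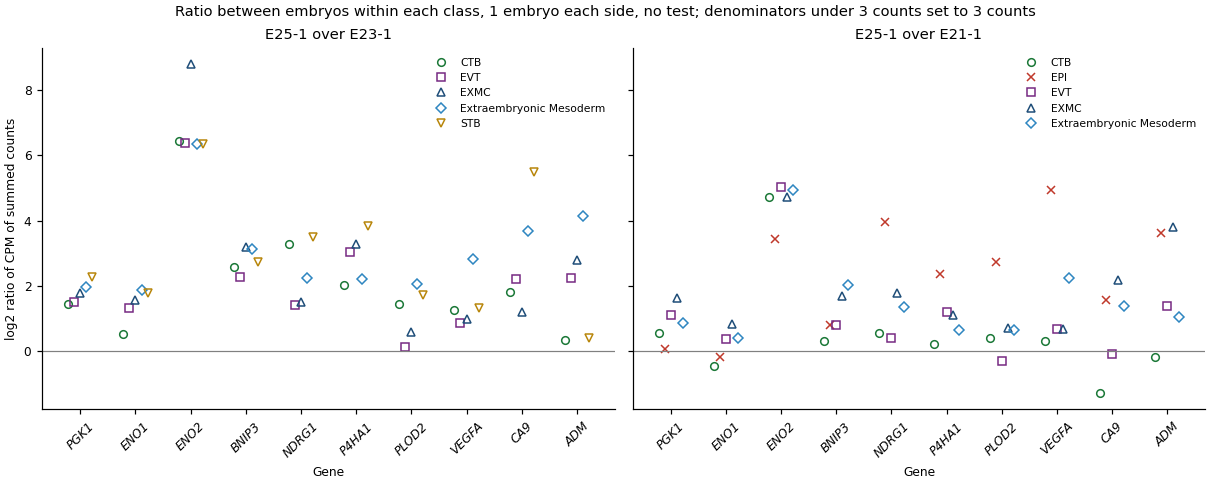
log2 ratio of CPM of summed counts, E25 over E23 (left) and E25 over E21 (right), for each gene (x axis) and each class with at least 10 cells in both embryos (symbols). All points of the left panel lie above 0, with ENO2 in EXMC the farthest (8.79); there ENO2 in Extraembryonic Mesoderm and STB and CA9 in STB have under 3 counts in E23 and are drawn against 3 counts. In the right panel 6 points fall below 0, which are ENO1, CA9 and ADM in CTB, ENO1 in EPI, and PLOD2 and CA9 in EVT.

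Slopes of day were fitted on library sums, where fewer cells of a type and less RNA per cell cannot be told apart, and within 4 classes. Over 42 library sums, 4 of 10 members rose with day, where 8.25% of all 13174 genes did, and none fell. These were ENO2 (0.31 ± 0.09 log2 per day, edgeR adjusted p = 0.015), NDRG1 (0.22 ± 0.06, 0.0092), P4HA1 (0.20 ± 0.06, 0.0082) and VEGFA (0.17 ± 0.05, 0.0099). NDRG1 averaged 17.1 ± 7.14 CPM in E16-1 (SD, n = 4 libraries), 58.8 ± 5.02 in E16-2 (n = 3), 234 ± 68.6 in E18 (n = 5), 250.3 ± 40.7 in E20 (n = 6), 106 ± 29.2 in E21 (n = 5), 90.7 ± 23.6 in E22 (n = 6), 74.3 ± 27.3 in E23 (n = 6), 633 ± 104 in E24 (n = 2) and 342 ± 41.4 in E25 (n = 5). The level did not climb from day to day. Cell type markers differed between the same embryos. Summed over all cells, mesenchyme markers were 364 CPM in E16-1, 9807 CPM in E16-2, 9092 to 29310 CPM in the embryos of E18 to E24 and 20946 CPM in E25. Syncytiotrophoblast markers were 99.9 CPM in E16-1 and 2018 CPM in E16-2, 77.1 to 8189 CPM in the embryos of E18 to E24 and 1976 CPM in E25. The part of these markers in the slopes was not tested. With sums per embryo none of the 4 was called (adjusted p = 0.47 to 0.57), and without the E16 libraries none was either (0.201 to 0.406). With day as 8 levels in place of a slope, a fit added after the data were seen, all 10 members were called, where 74.5% of all genes were. Within classes that fit called 9 of 10 members for EXMC (42.2% of all genes), 9 for CTB (29.7%), 9 for EVT (22.8%) and 6 for Extraembryonic Mesoderm (16.3%).

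Within classes few slopes were called. In EXMC (28 sums) none of the 10 members was called, where 1.73% of 10976 genes were, and the nearest was NDRG1 (0.19 ± 0.05, adjusted p = 0.056). At an unadjusted p under 0.05 the count was 2 of 10 (NDRG1 and CA9), beside 1554 of all 10976 genes. DESeq2 and limma-voom each called 1 member after adjustment, beside 388 and 126 of the same 10976 genes. In CTB (21 sums) ENO2 (0.63 ± 0.16, 0.029) and PLOD2 (0.15 ± 0.04, 0.041) rose, where 1.77% of 10794 genes did. In EVT (21 sums, in which ENO2 and CA9 did not pass the filter on low counts) P4HA1 was the member that rose of 8 tested (0.24 ± 0.07, 0.029), where 4.27% of 9842 genes did, and its slope was 0.03 with adjusted p = 0.88 without fine cluster 18. With sums per embryo none of these 3 was called (adjusted p = 0.719 to 0.786).

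Extraembryonic Mesoderm went the other way. Its sums of at least 10 cells cover E18 (1 library), E20 (6), E21 (5) and E22 (6). PGK1 was 2011 CPM in the library of E18, 1567 to 2203 CPM in E20 (median 1870.3), 891, 910, 1048, 1187 and 1217 CPM in E21 and 647 to 915.5 CPM in E22 (median 848). PLOD2 was 554 CPM in E18, 345 to 775 CPM in E20 (median 725), 203, 256, 330.1, 346 and 408 CPM in E21 and 142 to 283 CPM in E22 (median 187). Every E20 library was above every E22 library for both. The cells of these days lay in different fine clusters, with 71 of 97 cells of E20 in cluster 22, 64 of 94 cells of E21 in cluster 5 and 30 in cluster 8, and 70 of 197 cells of E22 in cluster 5 and 125 in cluster 8. Cluster 22 had 1858 CPM of PGK1 and 685 CPM of PLOD2, against 1096 and 397 CPM in cluster 5 and 1165 and 224 CPM in cluster 8. Within cluster 5, PGK1 was 1835 CPM in 17 cells of E20, 1025 CPM in 64 cells of E21 and 666 CPM in 70 cells of E22, and PLOD2 was 728, 394 and 282 CPM in the same order. These values within a cluster were not tested. The slopes were -0.49 ± 0.08 for PGK1 (adjusted p = 0.00091), -0.68 ± 0.11 for PLOD2 (0.0015), -0.45 ± 0.08 for BNIP3 (0.0047), -1.07 ± 0.26 for ENO2 (0.033), -0.31 ± 0.08 for P4HA1 (0.037) and -0.25 ± 0.06 for ENO1 (0.037). Of 10 members 6 fell, where 1.48% of 11685 genes did, and none rose. With sums per embryo, which add E23 and E25, no slope was called (adjusted p = 0.78 to 0.99), and those of ENO2 (0.28) and BNIP3 (0.01) were above 0.

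**Figure D5:**
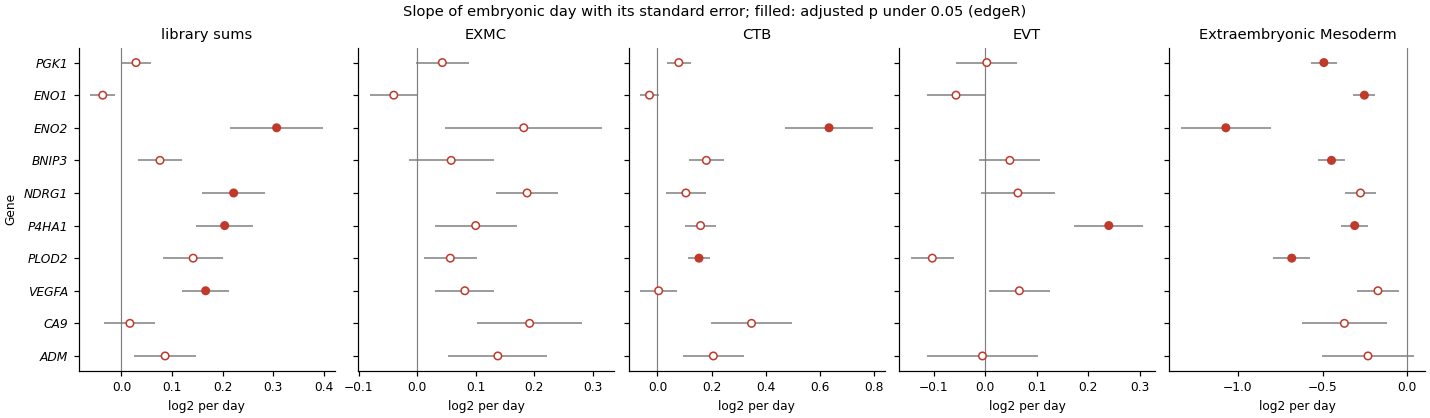
Slope of embryonic day (log2 per day, with its standard error) for each gene in library sums and in 4 classes, each panel with its own x scale; filled circles have an edgeR adjusted p under 0.05. There are 4 filled circles in library sums, 0 for EXMC, 2 for CTB, 1 for EVT and 6 for Extraembryonic Mesoderm, where all 6 are below 0.

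Other genes of the same pathways were counted from 4 lists. Of 23 further glycolysis genes, 17 are in the table under their symbol (SLC2A3, GPI, ALDOA, TPI1, PKM and LDHA were not analysed here), and of 22 further hypoxia-response genes, 20 are. Over library sums, 9 of 20 tested hypoxia-response genes rose with day, where 8.25% of all genes did, and none fell, led by STC1 (0.31 log2 per day), a secreted glycoprotein, ERO1A (0.20), an oxidase of protein folding, and STC2 (0.19). Of 16 glycolysis genes 3 rose (PFKFB4, PFKP and SLC2A1, the last a glucose transporter). With sums per embryo edgeR called none of these, nor any of 15835 genes (1543 at an unadjusted p under 0.05, among them 2 of the 20 hypoxia-response genes). In Extraembryonic Mesoderm 6 of 16 glycolysis genes fell, led by PFKFB3, ALDOC and PGAM1, and 6 of 18 hypoxia-response genes, among them STC1 and ERO1A, where 1.48% of all genes fell. With sums per embryo no gene of either list was called there, and 2 of 12399 genes were. In EXMC none of either list was called.

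Between classes, CTB was lower than the mean of the others in 12 of 16 glycolysis genes (14.5% of all genes), with ENO3 (-3.62), HK2 (-1.65) and PFKFB3 (-1.61) in front, and higher in SLC16A1 (0.84), a lactate carrier. EVT was higher than CTB in 7 of 16 glycolysis genes and lower in none, and higher in 8 of 20 hypoxia-response genes (18.1% of all genes), among them LOX (2.41), with CA12 (-2.65) and EGLN3 (-0.80) lower. Extraembryonic Mesoderm was higher than EXMC in 9 of 16 glycolysis genes (7.88% of all genes) and lower in none, led by ENO3 (2.43), SLC2A1 (2.15) and HK2 (1.49). The median difference of that list was 0.69, beside -0.04 over all genes. EXMC was lower than the mean of the others in 8 of 16 glycolysis genes, among them SLC2A1 (-1.35), and higher in 1. Of 20 hypoxia-response genes it was higher in 8, among them LOX (3.57), a collagen cross-linker, and lower in 3. Of all genes 16.6% were called higher in EXMC and 8.63% lower. The median difference was -0.51 for the glycolysis list and 0.40 for the hypoxia-response list, beside 0.12 over all genes.

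The oxygen-sensing list held 10 genes, of which 9 are in the table (VHL was not analysed here). EGLN1, a prolyl hydroxylase (0.09), rose over library sums as 1 of 8 tested (8.25% of all genes), and edgeR called none within CTB, EXMC or Extraembryonic Mesoderm. HIF1A, the α subunit itself, fell in EVT by 0.19 log2 per day as 1 of 7 tested (2.61% of all genes). No gene of this list was called in any of these fits with sums per embryo. EPAS1, which encodes the related HIF-2α, was higher in EVT (3.19) and CTB (2.22) than in the mean of the other classes. HIF1A was lower in EXMC (-0.74) and higher in EVT (0.43). Called higher were 2 of 9 tested in EVT (15% of all genes) and 2 of 9 in CTB (16.2%). Called lower in EXMC was 1 of 9 (8.63%). In EVT against CTB 4 of 9 were higher (18.1%) and 1 lower (14.6%). Of the receptors of VEGFA and ADM (8 genes, all in the table), 6 were tested for slopes. RAMP2 (0.24) rose over library sums, FLT1 (0.37) in CTB, and KDR (0.52), NRP2 (0.49) and RAMP1 (0.43) in EVT (4.27% of all genes). NRP2 fell in EXMC (-0.15), and KDR (-0.70) and NRP1 (-0.44) in Extraembryonic Mesoderm. None of these was called with sums per embryo. EVT was higher than CTB in 4 of 8 receptors (18.1% of all genes), led by FLT1, a VEGFA receptor (3.27), and lower in 2 (14.6%), NRP1 (-1.07) and NRP2 (-1.11). KDR and RAMP1, a partner of the ADM receptor, were higher in EXMC (1.596 and 2.49) and in Extraembryonic Mesoderm (2.43 and 3.84) than in the mean of the others. Called higher were 3 of 8 receptors in EXMC (16.6% of all genes) and 5 of 8 in Extraembryonic Mesoderm (14.5%), and none lower.

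Over 111 sums of a library and a class, which share libraries and depth, each gene's log2 CPM was correlated with the mean z-score of the 10 members, as a description only. With class means taken off, Pearson's r of a member with the mean of the other 9 ran from 0.41 (CA9) to 0.89 (BNIP3). The genes outside the list with the highest r were ERO1A (0.88), TOMM20 (0.83), PGAM1 (0.83), PFKFB4 (0.81) and INSIG2 (0.79), beside a median of 0.02 over 14689 genes with 90% of genes between -0.27 and 0.33. Without taking class means off they were RAB2B (0.81), PGAM1 (0.79), WSB1 (0.79), P4HA2 (0.75) and PGM1 (0.74). With class means taken off, r was 0.01 for HIF1A and -0.24 for EPAS1. Between pairs of members r with class means taken off ran from 0.10 to 0.86, with a median of 0.48 over 45 pairs. Without taking them off, pairs ran from -0.36 (PLOD2 with CA9) to 0.84 (PGK1 with BNIP3). A member's r with the mean of the other 9 then ran from 0.10 (CA9) to 0.79 (ENO2).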

How the data were processed

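Single cells of 9 cultured cynomolgus embryos were profiled in 44 libraries. Raw counts per gene and cell were deposited by the authors. The submitters' processing notes name cutadapt 1.15, STAR 2.6.0a and HTSeq 0.10.0, whereas the sources used here give neither genome build, annotation or doublet handling nor whether counts are reads or molecules. Classes, fine clusters, embryo, sex and condition come from the authors' deposited annotation, days from the labels.

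Counts were summed per library, and per library and class with at least 10 cells. Slopes of day and class contrasts (these with library as a block) were fitted with edgeR 4.0.16 (quasi-likelihood, TMM, R 4.3.3) over all genes that passed its filter on low counts, with Benjamini-Hochberg adjustment over genes and contrasts and a threshold of 0.05. DESeq2 1.42.0 and limma 3.58.1 (voom) served as alternatives. On simulated data with 100 changed genes per size, slopes of 0.5 log2 per day were recovered in 100% for EXMC, CTB and EVT but 22% for Extraembryonic Mesoderm, slopes of 0.25 in 99%, 75%, 71% and 3%, and EVT contrasts of 2 and 1 in 87% and 57% (1384 genes). The simulated libraries were independent, with a common dispersion for all genes and no difference between embryos. In the data each day after E16 is 1 embryo, so these shares are not the power of the real fits. CPM were computed from summed counts. Libraries of 1 embryo measure only the spread between libraries, which may be technical. The genes, their lists and the embryo pairs were chosen with earlier results of these data known. All 10 members were to be named, of each other list up to 3 called genes with the largest change per direction, and the 5 genes most like the members.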

Additional observations from a re-analysis of the deposited data

Results flagged for a closer look

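Of 110 groups of 4 to 10 libraries, 6 (5.45%) held a library far from the others of its embryo, and chance gives about 1 in 20. In library sums, PGK1 was 1281 CPM in library 40 of E18, against 1482 to 1537 CPM in the other libraries of that embryo. ENO1 was 587 CPM in library 12 of E23, against 833 to 977 CPM in the others. CA9 was 13.2 CPM in library 38 of E20, against 0.98 to 4.12 CPM. In EXMC, PGK1 was 445 CPM in library 19 of E21, against 549 to 588 CPM, and VEGFA was 345 CPM in library 22 of E25, against 244 to 269 CPM. CA9 in EXMC was 23.1 CPM in library 8 of E23, against 0 to 4.80 CPM.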

How the results depend on the processing

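Class contrasts called 42 of 80 member tests and pairs of classes 12 of 20, with 36 to 44 and 11 to 13 when 1 library was left out. Over all genes, 1.31% to 16.6% were called higher in a class contrast and 1.8% to 14.5% lower. In the pairs, 18.1% were higher and 14.6% lower for EVT against CTB, and 7.88% each way for Extraembryonic Mesoderm against EXMC. The slopes of day depended on the unit. Library sums gave 4 members, but 0 with sums per embryo, 1 with limma-voom and embryo as a block, 1 with library code as a term, 0 without E16 and 10 with day as a factor. All genes called in that order were 2435, 0, 197, 1027, 1087 and 11969, of 13174 to 16057 tested. EXMC gave 0, but 1 without a filter on low counts, with DESeq2, with limma-voom or with at least 20 cells, 4 with library code and 9 with day as a factor. All genes called in that order were 190, 1008, 388, 126, 339, 536 and 5442, of 10976 to 19002 tested. CTB gave 2, but 0 with sums per embryo, limma-voom or library code, 1 without E16 and 9 with day as a factor. All genes called in that order were 363, 0, 12, 85, 741 and 4004, of 10401 to 13460 tested. EVT gave 1, but 2 without a filter, 3 with at least 20 cells, 9 with day as a factor and 0 with sums per embryo, limma-voom, library code or without cluster 18. All genes called in that order were 677, 2047, 1378, 2786, 0, 230, 56 and 82, of 9400 to 17520 tested. Extraembryonic Mesoderm gave 6, but 0 with sums per embryo or library code and 2 with at least 20 cells. All genes called in that order were 248, 2, 55 and 532, of 11479 to 13621 tested. Leaving out 1 library gave 4 to 4 in library sums, 0 to 1 in EXMC (1 without library 40, 41, 42 or 43), 0 to 5 in CTB (0 without 15, 16 or 17, 5 without 41), 0 to 2 in EVT (0 without 16, 17 or 22) and 3 to 6 in Extraembryonic Mesoderm (3 without 28, 30, 31, 32 or 33). Slopes turned sign for PLOD2 in CTB with library code (-0.12), for ENO2 in Extraembryonic Mesoderm with sums per embryo (0.28) and library code (1.11), and for BNIP3 there with sums per embryo (0.0065). The cause was not tested.

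Class fits without 1 library used 1555 genes, and with all libraries these genes alone gave adjusted p = 0.058 for BNIP3 in EVT and 0.054 for VEGFA in Extraembryonic Mesoderm against EXMC (an alternative chosen after seeing the data). Neither was called there, nor in 34 and 39 of 41 fits without 1 library, so these losses go with the gene set. ADM in EXMC (0.048 with all libraries) was lost in 27 of 41. Calls also lost were PGK1 in EVT without library 32 or 42, P4HA1 in EVT without 32, PGK1 in Mesoderm without 25 or 30, PGK1 and ENO1 in Neural ectoderm without 32, PLOD2 there without 30 and CA9 there without 28, CA9 in Non-neural ectoderm without 8, 10, 11 or 30, and PLOD2, VEGFA and BNIP3 in PS and derivative without 5 or 7. With DESeq2 or RLE other calls were lost: ADM in EVT and EXMC and CA9 in Non-neural ectoderm with DESeq2, and PLOD2 in Neural ectoderm with RLE size factors. RLE moved the median of all genes to -0.14 in the CTB contrast, against -0.02 with TMM, and to 0.05 in Neural ectoderm, against -0.07. Neural ectoderm, Non-neural ectoderm and PS and derivative could not be fitted with at least 20 cells, nor PS and derivative without E16. For the slopes of day, no replicate number is shared. No paired analysis was possible because each number names 1 library of 1 day, while class contrasts had library as a block throughout. Depth limits CA9, ENO2 and ADM, which had 0 counts in several sums.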

Other observations

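Libraries 26 and 27, which the labels put in no single day, had different levels of most members. Library 26 (55 cells) had 742 CPM of PGK1, 1983 CPM of ENO1, 11.6 CPM of ENO2, 827 CPM of BNIP3, 90.4 CPM of NDRG1, 513 CPM of P4HA1, 636 CPM of PLOD2, 141 CPM of VEGFA, 16.1 CPM of CA9 and 41.3 CPM of ADM. Library 27 (94 cells) had 1145 CPM of PGK1, 1327 CPM of ENO1, 4.52 CPM of ENO2, 1488 CPM of BNIP3, 894 CPM of NDRG1, 259 CPM of P4HA1, 492 CPM of PLOD2, 183 CPM of VEGFA, 7.56 CPM of CA9 and 60.4 CPM of ADM.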
